A study of Homo sapiens with 8 samples.

Results

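The CCN genes encode a family of secreted matricellular proteins, and 5 of them were followed here in MDA-MB-231 cells, a human triple-negative breast cancer line, with and without the integrin α3 subunit depleted. They are CCN1 (formerly CYR61), CCN2 (CTGF), CCN3 (NOV), CCN4 (WISP1) and CCN5 (WISP2). A feature was taken when the platform annotation paired it with 1 of these genes and no other, which gave 5 of 22011 gene-level transcript clusters and 42 of 287329 exon-level probesets. The controls carried a lentiviral control shRNA, and the other group a lentiviral shRNA against α3, both stably expressed in cells kept on standard culture plates. Each group had 2 arrays of separate samples, described by the submitters as biological replicates, and each array was summarised at the gene level and again at the exon level. The exon-level samples are therefore the same arrays and add no replicates. No second α3 hairpin and no α3 rescue was analysed here, so loss of α3 and other effects of the hairpin cannot be told apart. Whether the transduced cells came from 1 clone, and which promoter drove the hairpins, is not given in the sources used here.

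CCN proteins are built from up to 4 modules that resemble parts of insulin-like growth factor binding proteins, von Willebrand factor type C repeats, thrombospondin type 1 repeats and a cysteine knot. CCN5 lacks the last of these. They are not structural fibres but signals held in the matrix, and they act largely through integrins and heparan sulphate proteoglycans on the cell that binds them. CCN1 and CCN2 are immediate early genes and textbook targets of the transcriptional co-activators YAP and TAZ, which act through TEAD factors, and of SRF and SMAD proteins. CCN3 often acts in opposition to CCN2 in fibrosis models, CCN4 was found as a WNT1-induced gene, and CCN5 is oestrogen-induced in luminal breast cancer cells.

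All levels below are PLIER intensities, the linear probe-set summary deposited by the authors, and are given per array or as mean ± SD with n = 2 arrays per group. Differences are knockdown minus control on the log2(intensity + 16) scale with the standard error (SE) from limma. Their p-values were adjusted over all features tested by the Benjamini-Hochberg method, with a threshold of 0.05. The number of arrays limits the precision of every value, since a permutation of 2 against 2 arrays cannot give a two-sided p below 0.333. Array medians at the gene level were 177 and 186 with the control hairpin against 168 and 171 with the α3 hairpin. ITGA3, which the hairpin targets, had intensities of 3480 and 3529 with the control hairpin against 619 and 644 with the α3 hairpin, so the arrays matched their labels. The 5 genes chosen as high in this mesenchymal-type line, VIM, CD44, CAV1, LGALS1 and ANXA1, all lay above the filter on dim features. Of 6 genes listed as low in this line, 3 lay above the filter, ERBB2, GATA3 and FOXA1. In controls and knockdown cells, ERBB2 was at 470 ± 13.8 and 339 ± 9.51. GATA3 was at 146 ± 1.84 and 173 ± 12.3, and FOXA1 at 123 ± 8.59 and 123 ± 22.6. CDH1, another of the 6, encodes E-cadherin and lay below the filter by its mean over the 4 arrays. It was at 27.1 ± 2.37 in controls and 172 ± 6.79 in knockdown cells. Summed intensity of 6 luminal markers was 4281 and 4681 with the control hairpin against 2858 and 2864 with the α3 hairpin, most of it KRT19. The part of these shifts in the CCN results was not tested. Of 4 endothelial markers 0 lay above the filter, and of 5 measured fibroblast markers only COL1A1 did, and of 3 measured leukocyte markers CD14 and CD3E did. CD14 was at 221 ± 13.5 in controls and 228 ± 32.1 in knockdown cells, CD3E at 104 ± 14.3 and 127 ± 23.8, and the groups overlapped for both.

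The CCN genes did not move together. CCN3 fell in the knockdown arrays, CCN1 and CCN2 were slightly above the controls without passing the test, and CCN4 and CCN5 were dim in both groups. Of the 5 members, 3 were bright enough to be tested at the gene level. Of these 1 fell and 0 rose, against 15.3% of 13207 clusters called lower and 5.99% called higher, or 21.3% in either direction. Of the called clusters 791 were higher and 2016 lower, a split that became 1353 and 1679 after quantile normalization and 1496 and 1507 after centring each array on its median. At an unadjusted p under 0.05 in limma, CCN2 was also higher. At that level 1016 of 9230 tested genes with 1 symbol were higher and 2453 lower.

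**Figure D1:**
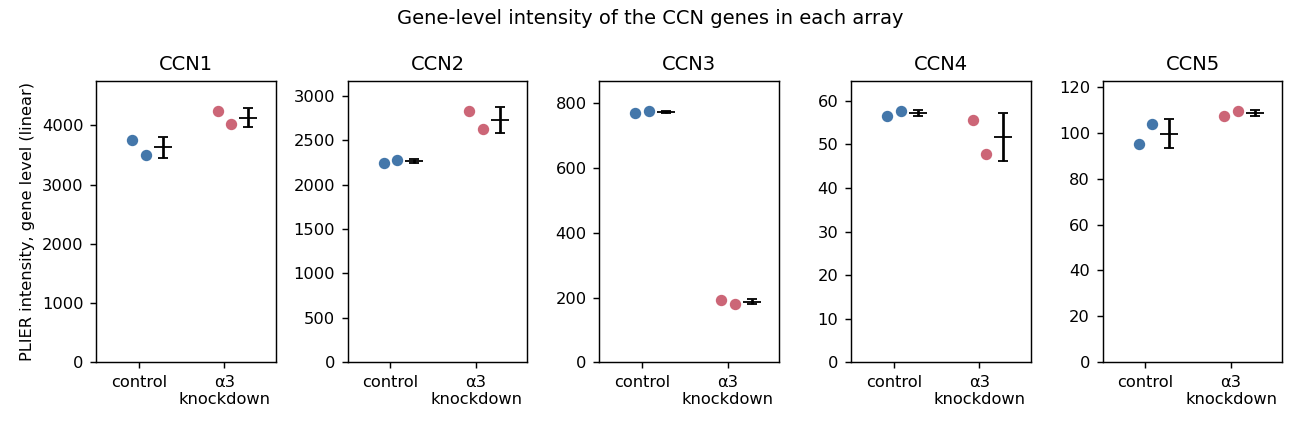
Gene-level PLIER intensity (linear axes from 0, a separate scale for each gene) of the 5 CCN genes in the 2 control and 2 α3 knockdown arrays; points are arrays, and the bar beside them is mean ± SD. CCN3 separates widely, from 773 ± 3.42 to 187 ± 8.20, while the other 4 genes differ by small amounts.

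CCN3, which binds integrins and is reported to restrain growth in several cell types, measured 771 and 776 with the control hairpin against 193 and 182 with the α3 hairpin. Both knockdown arrays were far below both controls, an order found in 39.6% of tested clusters, with little spread inside either group. The mean went from 773 ± 3.42 to 187 ± 8.20, a 4.13-fold lower intensity. The log2 difference was -1.96 ± 0.088 (SE), with a 95% confidence interval of -2.17 to -1.74 (adjusted p = 0.000243, limma with Benjamini-Hochberg adjustment). Only 21 of 13207 tested clusters, CCN3 included, had a log2 difference this low or lower. Fewer cells with the transcript and less transcript per cell cannot be told apart in these bulk samples.

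CCN2, which encodes connective tissue growth factor, measured 2245 and 2277 with the control hairpin against 2824 and 2622 with the α3 hairpin. Both knockdown arrays were above both controls, a separation seen in one direction or the other in 61.8% of tested clusters and upward in 22.3%. The log2 difference was 0.27 ± 0.077 (SE), with an unadjusted 95% confidence interval of 0.079 to 0.45, and missed the threshold (adjusted p = 0.0564, limma). Scaling and filtering moved it across the threshold. After quantile normalization the difference was 0.30 and passed (adjusted p = 0.0378), as it did after median centring (0.36, adjusted p = 0.0250) and with the lower 60% of clusters left out (0.27, adjusted p = 0.0497). Without any 1 of the 4 arrays it did not pass.

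The promoter of CCN2 carries the TEAD motif through which YAP and TAZ are known to act, and it is shown because CCN2 is the member closest to the test threshold and its regulators were measured on the same arrays. The sequence is from RefSeq, build GRCh38.p14, chr6:131951323-131951622 on the minus strand, running from 250 bases before to 50 bases after the start of the gene. It is written 5′ to 3′, with each match to GGAATG, searched on both strands, in capitals.

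CCN2: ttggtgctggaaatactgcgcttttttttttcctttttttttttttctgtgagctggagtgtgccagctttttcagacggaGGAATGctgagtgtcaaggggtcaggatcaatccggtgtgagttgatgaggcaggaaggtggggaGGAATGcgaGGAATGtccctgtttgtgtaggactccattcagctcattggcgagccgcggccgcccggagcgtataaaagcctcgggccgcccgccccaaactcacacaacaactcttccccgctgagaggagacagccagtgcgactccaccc

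The 3 matches start 169, 104 and 95 bases before the start of the gene. Among 35116 RefSeq promoters of the same length, 14% held at least 1 match and 0.128% held 3 or more. A TATAAA match, searched on the printed strand, lies 32 bases before the start and is found in 7.33% of promoters. No TGANTCA, the core AP-1 motif searched on both strands, is in this window, and 7.71% of promoters hold it. A match describes the letters only, and binding was not measured. The promoters of the other members are not shown here.

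CCN1, which encodes the cysteine-rich angiogenic inducer CYR61, measured 3754 and 3507 with the control hairpin against 4242 and 4023 with the α3 hairpin. The groups did not overlap, a separation seen in one direction or the other in 61.8% of tested clusters and upward in 22.3%. The gap between the groups was of the size of the spread within each group. The mean went from 3631 ± 175 to 4132 ± 155, a log2 difference of 0.19 ± 0.080 (SE) with a 95% confidence interval of -0.0080 to 0.38 (adjusted p = 0.154, limma). The interval leaves room for a rise of up to 0.38 on the log2 scale. CCN1 did not pass under any alternative setting run at the gene level (adjusted p = 0.0748 to 0.713).

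The other 2 members fell below the filter on dim features, which left out the lower 40% of clusters by mean log2 value. CCN4 measured 56.6 and 57.6 with the control hairpin against 55.5 and 47.8 with the α3 hairpin. CCN5 measured 95.2 and 104 with the control hairpin against 107 and 109 with the α3 hairpin. Neither pair of groups overlapped, but the differences were small. Such a separation was seen in 61.8% of tested clusters, and its share among clusters below the filter was not counted. Fitted without the filter, neither passed, with log2 differences of -0.11 ± 0.13 (SE) for CCN4 (adjusted p = 0.694, limma) and 0.11 ± 0.11 (SE) for CCN5 (adjusted p = 0.654).

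The exon-level values gave the change of each gene probeset by probeset. Of the 42 member probesets, 29 passed the filter, and of these 5 were called lower and 0 higher. All 5 were probesets of CCN3, against 3.25% of 172397 probesets called lower, 1.33% called higher and 4.58% in either direction. At an unadjusted p under 0.05 in limma there were 2 CCN1 and 4 CCN2 probesets, all higher, and 6 CCN3 probesets, all lower. The share of all probesets at that unadjusted level was not counted. The probesets of a gene share the same 4 arrays and are not replicates of each other. Their places in exons are not given here, since the files and tables used name none.

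**Figure D2:**
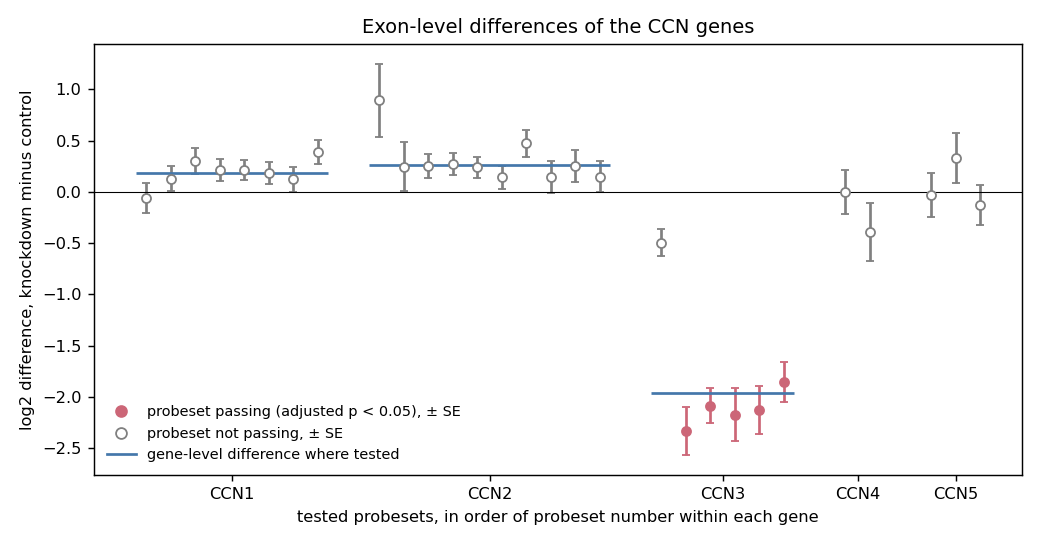
Exon-level log2 difference (knockdown minus control, ± SE from limma) of the 29 tested probesets of the 5 CCN genes, with the gene-level difference as a line where it was tested. In CCN3, 5 probesets lie between -2.34 and -1.85 and 1 lies at -0.49, whereas CCN1 probesets run from -0.060 to 0.39 and CCN2 probesets from 0.14 to 0.90.

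All 7 CCN3 probesets had both knockdown arrays below both controls, where 31.3% of tested probesets did and 50.7% were separate in either direction. Probeset 3113217 measured 1789 and 1691 with the control hairpin against 457 and 345 with the α3 hairpin (log2 difference -2.09 ± 0.17 (SE), adjusted p = 0.000493, limma). Probeset 3113216 went from 385 and 441 to 66.7 and 70.9 (log2 difference -2.34 ± 0.23 (SE), adjusted p = 0.00152). In both, the knockdown arrays were several-fold below the controls. The other 3 called probesets, 3113218, 3113221 and 3113222, had log2 differences of -2.17, -2.13 and -1.85. In 3113216 and 3113218 the knockdown mean lay below the filter value, so both were tested only because their control levels were high, and their calls are not independent of the filter. Probeset 3113214 was too dim to be tested, at 49.4 and 97.2 with the control hairpin against 16.4 and 46.8 with the α3 hairpin. The 5 calls were kept in every fit that left out 1 array. They were lost without the filter on dim probesets (adjusted p = 0.0687 to 0.107), where 163 of 287329 probesets were called in all.

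Probeset 3113215 of CCN3 behaved differently from the others. It measured 1604 and 1523 with the control hairpin against 1136 and 1076 with the α3 hairpin, a 1.41-fold lower intensity that missed the threshold, with a log2 difference of -0.49 ± 0.13 (SE) and an adjusted p of 0.0699 in limma. The groups were separate, but the drop was much smaller than in the neighbouring probesets by number. Each probeset was then tested against the mean of the other tested probesets of its gene, in genes with at least 3 of them. Of 27 member probesets tested in this way, 1 was called, against 0.0444% of 155391 probesets, 0.0257% relatively higher and 0.0187% relatively lower. It was 3113215, which was 1.62 ± 0.14 (SE) higher on the log2 scale in knockdown, relative to the rest of CCN3, than in control (adjusted p = 0.0158). The relative difference stayed between 1.31 and 1.76 in the 12 alternative settings. It missed the threshold when control replicate 1 (adjusted p = 0.0719), control replicate 2 (0.138), the filter (0.258) or the intensity trend in the variance (0.0876) was left out.

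**Figure D3:**
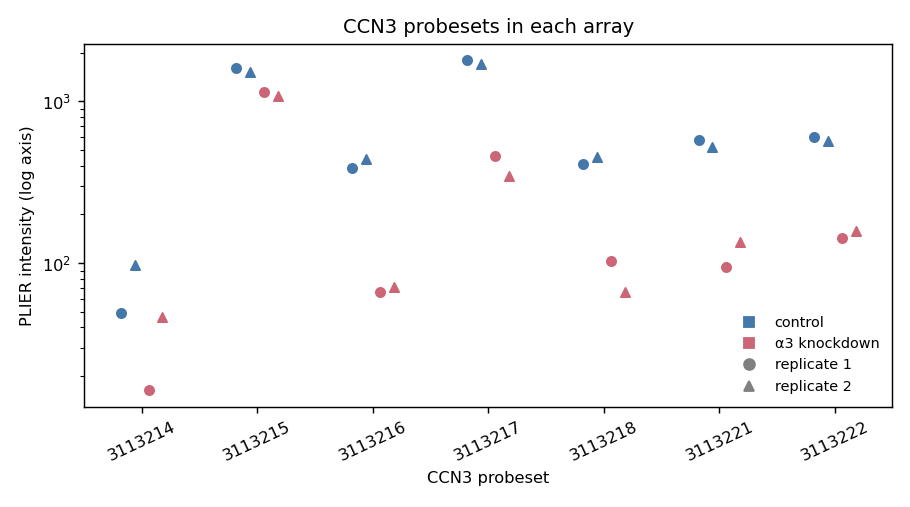
PLIER intensity (log axis) of the 7 CCN3 probesets in the 4 arrays; colours mark control and α3 knockdown, and symbols mark replicate 1 and replicate 2. The gap between the groups is narrow at 3113215 (1604 and 1523 against 1136 and 1076) and wide at the 5 probesets to its right.

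CCN2 had 8 of 10 probesets with both knockdown arrays above both controls and CCN1 5 of 8, where 19.4% of tested probesets showed that order. All 10 CCN2 probesets had a positive log2 difference, from 0.14 to 0.90 with a median of 0.25. The smallest p was that of 2974343, at 1720 and 1515 with the control hairpin against 2374 and 2136 with the α3 hairpin (0.48 ± 0.13 (SE), adjusted p = 0.0773, limma). The highest value, 0.90, came from a dim probeset, 2974332, with an SE of 0.36. CCN1 differences ran from -0.060 to 0.39 with a median of 0.20. The smallest p was that of 2344906, which measured 2183 and 2313 with the control hairpin against 2808 and 3088 with the α3 hairpin (0.39 ± 0.12 (SE), adjusted p = 0.101). Summarised as the median of their probesets, CCN1 differed by 0.085 (adjusted p = 0.713), CCN2 by 0.21 (adjusted p = 0.335) and CCN3 by -1.97 (adjusted p = 0.000948). In that fit 7.87% of 15106 genes were called, 5.75% lower and 2.12% higher.

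Most probesets of the other 2 members were dim. Of 7 CCN4 probesets 2 were tested, and of 10 CCN5 probesets 3, and 0 of these passed in limma, also at an unadjusted p under 0.05. The brightest CCN4 probeset, 3116841, measured 543 and 373 with the control hairpin against 479 and 424 with the α3 hairpin, which overlapped. The brightest CCN5 probeset, 3886591, measured 601 and 743 with the control hairpin against 525 and 708 with the α3 hairpin, which overlapped as well. Taken over all probesets of each gene, the groups overlapped in 6 of 7 for CCN4 and in 7 of 10 for CCN5. Among tested probesets of all genes 50.7% were separate in either direction, but most of the probesets counted here were too dim to be tested.

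Of 19 listed YAP, TEAD, SRF and SMAD genes, 15 were tested. Of these 4 fell, 0 rose and 11 missed the threshold, while 1 was higher and 6 were lower at an unadjusted p under 0.05 in limma. Their median log2 difference was -0.23, against -0.060 over 9230 tested genes with 1 symbol, of which 16.8% fell and 6.09% rose. At an unadjusted p under 0.05 in limma, 2453 of the 9230 genes were lower and 1016 higher. The counts for the regulators moved with the scaling of the arrays. Quantile normalization gave 2 rises and 4 falls, and median centring 2 rises and 2 falls. YAP1, the co-activator itself, fell from 1324 ± 129 to 1006 ± 67.5, which is -0.39 on the log2 scale (adjusted p = 0.0380). TGFB1, the ligand that induces CCN2 through SMAD proteins, fell from 497 ± 48.5 to 296 ± 14.1 (-0.71, adjusted p = 0.00773). The receptor gene TGFBR1 fell from 1439 ± 36.2 to 1135 ± 14.3 (adjusted p = 0.0243) and SMAD2, a signal carrier of that receptor, from 785 ± 102 to 515 ± 10.8 (adjusted p = 0.0147). The gene for TAZ, WWTR1, measured 1791 and 1507 with the control hairpin against 1439 and 1320 with the α3 hairpin and did not pass, nor did TEAD1 to TEAD4. TGFBR2, the other receptor gene listed, was at 1599 ± 67.6 in controls and 1920 ± 19.8 in knockdown cells. Its log2 difference of 0.26 missed the threshold (adjusted p = 0.0538, limma). SMAD3 (-0.060) and SMAD4 (0.22) did not pass either. These genes were named after their values were seen. The YAP1 call was lost without control replicate 2 (0.0949), knockdown replicate 1 (0.0811) or knockdown replicate 2 (0.206), without the filter (0.0796), without the trend in the variance (0.0569) and after centring (0.0575). That of TGFBR1 was lost without control replicate 2 (0.0552), knockdown replicate 1 (0.117) or 2 (0.157) and after centring (0.0517), and that of SMAD2 without knockdown replicate 1 (0.0669) or 2 (0.0628). The fall of TGFB1 passed in all 12 alternative settings.

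Other YAP and TEAD targets moved in both directions around CCN1 and CCN2. Of 19 listed genes, 15 were tested, 2 rose, 5 fell and 8 did not pass, where 6.09% of all tested genes rose and 16.8% fell. The median log2 difference of the 15 was -0.10. ANKRD1, a nuclear ankyrin-repeat protein often read together with CCN1 and CCN2, rose from 2053 ± 270 to 5998 ± 239 (log2 difference 1.54 ± 0.11 (SE), adjusted p = 0.00110, limma), while CCN1 and CCN2 differed by 0.19 and 0.27. TGFB2, a growth factor ligand, rose from 1748 ± 41.3 to 2213 ± 157 (adjusted p = 0.0352). The receptor kinase gene AXL fell from 4174 ± 61.5 to 2911 ± 4.50 (-0.52, adjusted p = 0.00691) and IGFBP3, an insulin-like growth factor binding protein gene, from 785 ± 20.2 to 498 ± 27.1 (-0.64, adjusted p = 0.00583). DOCK5 (-0.72), the kinase gene NUAK2 (-0.71) and RBMS3 (-0.71) also fell, with adjusted p between 0.00561 and 0.00651. TGFB2 missed the threshold whichever array was left out (0.0622 to 0.209), without the filter (0.0673) or the trend (0.0572), and the NUAK2 call without knockdown replicate 2 (0.0510).

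**Figure D4:**
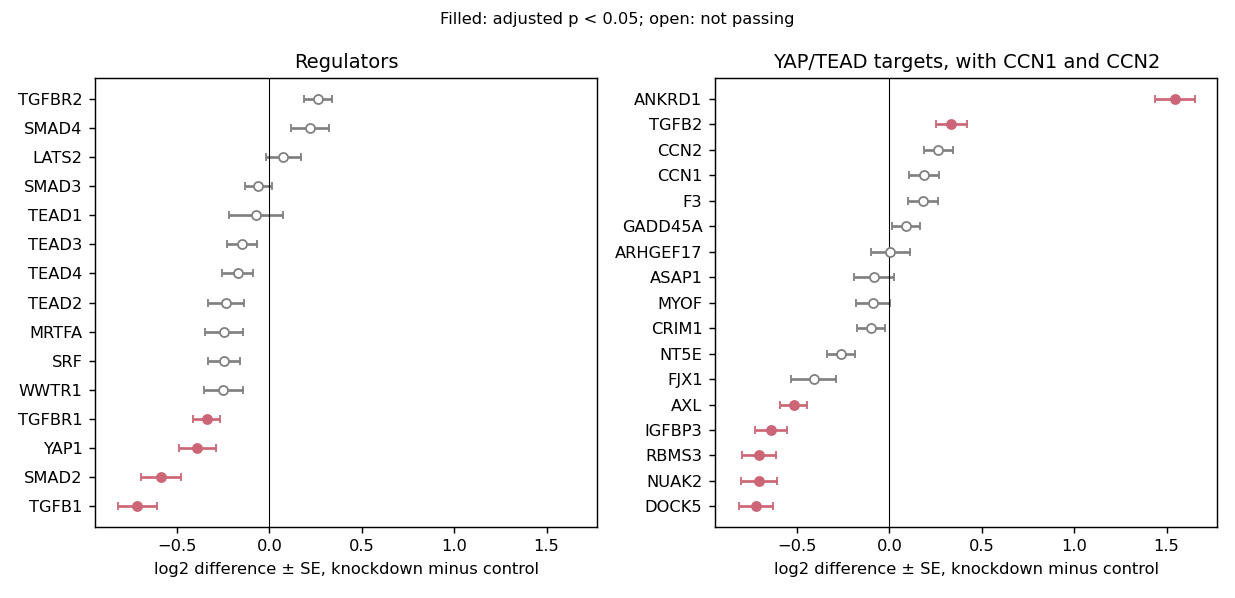
Gene-level log2 difference (knockdown minus control, ± SE from limma) of the 15 tested regulators (left) and of 15 tested YAP and TEAD targets with CCN1 and CCN2 (right); filled points passed at an adjusted p under 0.05. CCN1 (0.19) and CCN2 (0.27) lie between ANKRD1 (1.54) and DOCK5 (-0.72).

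Receptors through which CCN proteins act also moved in both directions. Of 14 listed genes, 12 were tested, 1 rose, 4 fell and 7 did not pass, with a median log2 difference of -0.073, where 6.09% of all tested genes rose and 16.8% fell. After quantile normalization 2 were higher and 3 lower, and after median centring 3 were higher and 3 lower. ITGB3, the β3 subunit of the αvβ3 receptor for CCN1, CCN2 and CCN3, rose from 131 ± 1.43 to 194 ± 23.8 (log2 difference 0.51, adjusted p = 0.0341, limma). Its partner ITGAV measured 812 and 830 with the control hairpin against 1074 and 931 with the α3 hairpin and did not pass, and is named after its values were seen. ITGA6, of the α6β1 receptor, fell from 2141 ± 16.8 to 1637 ± 2.55 (-0.38, adjusted p = 0.0151). The level of LRP1, an endocytic receptor that binds CCN2, fell from 225 ± 23.3 to 155 ± 8.56 (-0.49, adjusted p = 0.0342). ITGB2 (-0.46, adjusted p = 0.0253) and ITGA5 (-0.28, adjusted p = 0.0468) fell as well. All 5 calls were lost without knockdown replicate 1 (0.0688 to 0.252) or knockdown replicate 2 (0.0971 to 0.230). Without control replicate 1, ITGB3 (0.0799) and ITGA5 (0.0680) did not pass, and without control replicate 2 only ITGA6 did. Without the filter, ITGB3 (0.0647), LRP1 (0.0648) and ITGA5 (0.0740) did not pass, and ITGA5 did not pass after quantile normalization (0.0795), after centring (0.107) or without the trend (0.0681).

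The genes whose values over the 4 gene-level arrays were most like those of CCN3 were STK26, a serine/threonine kinase gene, PROS1, which encodes protein S, and SRPX, a sushi-repeat protein gene. Likeness was the Euclidean distance between log2 values centred on their mean, which was 0.077 for STK26, 0.14 for PROS1 and 0.16 for SRPX. STK26 measured 686 and 712 with the control hairpin against 168 and 171 with the α3 hairpin. With 2 arrays a group, this measure ranks mainly the size of the difference. SRPX measured 248 and 272 with the control hairpin against 60.8 and 61.2 with the α3 hairpin. Its knockdown mean lay below the filter value, so it was tested and ranked only because its control level was high.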

How the data were processed

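PLIER intensities, linear, from Affymetrix Human Exon 1.0 ST arrays were deposited by the authors, who made them with Affymetrix Expression Console in core-gene and core-exon analyses, per the labels and the submitters' processing notes. How arrays were background-corrected and scaled, and software versions, were not given in the sources used here. Features were named through the platform annotation, with symbols updated through RefSeq. NOV, also a synonym of other genes there, was taken as CCN3.

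Intensities were transformed as log2(value + 16) without rescaling. The lower 40% of features by mean log2 value over the 4 arrays were left out. A two-sided limma 3.58.1 fit (R 4.3.3) with an intensity trend and a group term, leaving 2 residual degrees of freedom, compared knockdown with control. Single probesets were also tested against the mean of the other tested probesets of their gene. Both steps were also run on simulated data with independent noise of the spread that the same fits gave. The outcome is not given here, and since the noise followed the fits' own assumptions, it is no check of them on these data. That noise holds no deviation shared by same-numbered arrays, so the run cannot test the p-values against one. The series text calls the samples biological replicates without saying whether they were separate cultures, so p-values measure the spread between these arrays. A gene with several clusters was represented by its brightest tested one. Fits that left out 1 array took their spread from the other group, so the lone array is taken to vary as that group does.

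The members and gene lists were chosen with earlier results of these data known. The text names all members and, of each list, called genes. If none was called, it names the gene with the smallest p. For each called member the 3 genes nearest in centred log2 values are named. Plots were drawn with matplotlib 3.10.9 in Python 3.11.15.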

Additional observations from a re-analysis of the deposited data

How the results depend on the processing

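The fall of CCN3 kept its direction and passed in all 13 alternatives run at the gene level (log2 difference -2.04 to -1.74, adjusted p = 1.74e-05 to 0.00439, limma), and CCN1 passed in none. CCN2 passed with the lower 60% left out (0.27), after quantile normalization (0.30), after centring (0.36) and with a replicate block (0.27, adjusted p = 0.0416). Clusters called higher went from 791 to 485 without the filter, 1353 after quantile normalization, 1496 after centring (with 1507 lower, against 2016 as reported) and 1324 with the replicate block. Leaving out 1 array gave 166 to 909 higher and 632 to 1906 lower clusters, the fewest without knockdown replicate 2. CCN3 probesets called lower numbered 0 without the filter (6 at an unadjusted p under 0.05) and 2 with the lower 60% left out, where fewer of them were tested. The unequal change of 1 CCN3 probeset was called 0 times without the filter or the trend, where 3 member probesets each had an unadjusted p under 0.05, and 0 to 1 times with 1 array left out. Relative to its gene, CCN3 probeset 3113222 changed sign without passing, from -0.0094 to 0.013 with an offset of 1 and to 0.030 without control replicate 1 and 0.096 without knockdown replicate 1 (-0.11 to 0.096 over the fits that left out 1 array). The replicate block called 1 CCN1 and 2 CCN2 probesets, and leaving out control replicate 2 called 1 CCN2 probeset, with 0 to 1 over the 4 such fits. Same-numbered arrays deviated together (r = 0.29 over gene-level clusters, 0.30 over probesets), but the labels do not say what a number shares and there are only 2 pairs. The cause of these changes was not tested. Dim members, CCN4 and CCN5, are limited by signal.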

Other observations

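Over all 9230 tested genes with 1 symbol, 16.8% fell and 6.09% rose, which is the background for every list below. Among other matricellular genes, 4 of 10 listed were tested. Of these 2 fell, 0 rose and 2 did not pass, with 0 higher at an unadjusted p under 0.05 in limma. SPOCK1, a testican proteoglycan gene, fell from 312 ± 7.55 to 35.0 ± 1.24 and TNC, the tenascin-C gene, from 341 ± 58.8 to 51.4 ± 8.85. In both the knockdown mean lay below the filter value, so they were tested only through their control levels. Thrombospondin-1 (THBS1) measured 2399 and 2727 with the control hairpin against 2329 and 2169 with the α3 hairpin, did not pass, and is named after its values were seen. Of 10 listed SRF targets, 6 were tested, and MYL9, a myosin light chain gene, fell from 1171 ± 10.05 to 547 ± 0.401 (log2 difference -1.08, adjusted p = 0.00110). VCL, which encodes vinculin, fell from 1584 ± 90.4 to 1271 ± 40.8 (-0.31, adjusted p = 0.0394), a call lost without control replicate 2 (0.0937), knockdown replicate 1 (0.129) or 2 (0.226), without the filter (0.0728) or the trend (0.0636) and after centring (0.0785).

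Of 9 listed TGF-beta targets, 7 were tested, 3 fell and 0 rose, also at an unadjusted p under 0.05 in limma. Over all 9230 tested genes with 1 symbol, 16.8% fell and 6.09% rose. At that unadjusted level 2453 of them were lower and 1016 higher. JUNB fell from 531 ± 18.6 to 339 ± 4.63 (adjusted p = 0.00655). The calls of BHLHE40 (-0.37, adjusted p = 0.0345) and PMEPA1 (-0.53, adjusted p = 0.0384) were both lost without knockdown replicate 1 (0.211 and 0.122) or 2 (0.151 and 0.171) and after quantile normalization or centring (0.0580 to 0.0836). They were also lost without the filter (0.0615 and 0.0704), BHLHE40 without control replicate 1 (0.0830) and PMEPA1 without control replicate 2 (0.117). After quantile normalization or centring 1 TGF-beta target was called lower. Of 10 listed WNT targets, 5 were tested and LEF1, a transcription factor of that pathway, fell from 253 ± 6.59 to 145 ± 2.21 (adjusted p = 0.00655), while 0 rose, or 1 after quantile normalization or centring. Of 8 listed oestrogen targets, 4 were tested and TFF1, a trefoil peptide gene, rose from 54.2 ± 9.92 to 461 ± 20.03 (adjusted p = 0.000295). The control mean of TFF1 and the knockdown mean of PMEPA1 lay below the filter value, so each was tested only through its other group.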
